A study of Homo sapiens with 5 samples.

Results

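Cytosolic ribosomal protein genes encode the protein parts of the ribosome outside mitochondria. They were taken by name, as every gene whose symbol is RPL or RPS, optionally with P, followed by a number and optionally by A, X or L, in all 5 expression tables. This gave 77 genes of the 24544 symbols measured: 44 of the large subunit, 30 of the small subunit and the 3 acidic stalk (P-stalk) genes RPLP0, RPLP1 and RPLP2. The name rule itself uses no expression value. A few ribosomal proteins with other names (among them RPSA, FAU and GNB2L1, the older symbol of RACK1) fall outside the pattern and are described separately. RPL17, RPL36A and RPS10 were listed only in rows joined with a neighbouring gene and were not counted.

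RNA was sequenced from SNU-387 and SNU-398, which are established human hepatocellular carcinoma lines, in a study of SALL4, a zinc finger transcription factor of fetal tissue. SNU-387 cells carried an empty vector or overexpressed the isoform SALL4A or the isoform SALL4B, and SNU-398 cells were untreated or carried a SALL4 knockdown aimed at both isoforms. Each of the 5 groups held 1 library, so no value has replicate error and no difference could be tested. The treatment field lists lentivirus with puromycin for every sample, although the source of the SNU-398 control says untreated. The untreated library is thus no vector control for the knockdown, and whether the virus and the antibiotic alone alter these genes cannot be told apart from the knockdown. In the cell line field all 5 samples are SNU-387, against 2 titles that name SNU-398, and the titles were followed. The sources used here give no clone number, vector promoter or number of cultures behind a library.

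SALL4 itself was at 0.117 FPKM (fragment counts scaled to transcript length and library size) with empty vector, 23.1 with SALL4A and 10.4 with SALL4B, 39.4 untreated and 7.45 after knockdown, an order that follows the labels. Estimated depth ran from 7.17 M (mega) fragments in knockdown to 23.7 M in SALL4A. At 100 FPKM, a typical low member, a transcript of 1 kb had 717 to 2368 fragments behind it, so counting error is small for most members. Small RNAs took 1.73% of summed FPKM in untreated and 39.3% in knockdown cells, with 8.47% to 14.4% in the SNU-387 libraries. Of 10 hepatocyte markers, HNF4A stayed at or below 0.287 FPKM and albumin (ALB) at or below 1.28 FPKM in all libraries, but SERPINA1 reached 25.3 FPKM and APOA1 14.9 FPKM with SALL4B. TF, of the same list, was lower with either isoform, at 3.50 FPKM with empty vector, 0.598 with SALL4A and 0.278 with SALL4B. ALB, TTR, FGB and AHSG were listed at 0 with either isoform. The list summed to 10.9 FPKM with empty vector, 7.29 with SALL4A, 41.7 with SALL4B, 1.66 untreated and 1.09 after knockdown. Most of the SALL4B sum was SERPINA1 and APOA1.

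As background, every ribosome carries 1 copy of nearly every ribosomal protein, and their genes are among the most transcribed in a dividing cell. Their mRNAs start with a terminal oligopyrimidine (TOP) tract, a run of C and T (U in RNA) at the cap, through which the mTOR kinase and LARP1 control their translation. Many of these genes also carry small nucleolar RNAs (snoRNAs) in their introns. These are short RNAs that guide chemical modification of ribosomal RNA, and they are released when the intron is trimmed.

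The start of these genes was examined first, since the tract is the feature that ties them together. RefSeq starts (GRCh38.p14) were listed for 60 of the 77 members, and a window of 30 bases, 10 before and 20 after the start, was searched for a run of at least 8 bases that are each C or T. Where several starts were listed, the one with the longest run was taken, for members and other genes alike. Windows follow for 7 members that were among the most abundant or the most different between libraries and that hold such a run, with the longest run in capitals.
RPL26, chr17:8383174-8383203, minus strand: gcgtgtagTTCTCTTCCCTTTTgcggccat
RPL38, chr17:74203668-74203697, plus strand: aagtctcgttctttttcgTCCTTTTCCCCg
RPL31, chr2:101002279-101002308, plus strand: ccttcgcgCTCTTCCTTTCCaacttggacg
RPL37A, chr2:216498834-216498863, plus strand: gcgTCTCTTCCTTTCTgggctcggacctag
RPS24, chr10:78033853-78033882, plus strand: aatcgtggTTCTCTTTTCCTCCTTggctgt
RPL13A, chr19:49487598-49487627, plus strand: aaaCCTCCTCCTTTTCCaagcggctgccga
RPS28, chr19:8321486-8321515, plus strand: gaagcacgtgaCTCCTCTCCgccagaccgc
The runs have 14 bases in RPL26, 11 in RPL38, 12 in RPL31, 13 in RPL37A, 16 in RPS24, 14 in RPL13A and 9 in RPS28.

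Such a run was found in 50 of the 60 members (83.3%), against 15.3% of 27245 other symbols and 17.1% of the 8891 other symbols that were expressed here. On the opposite strand, where it appears as a run of A and G, it was found in 4 members (6.67%) and in 13% of other symbols. The 10 members without it were RPL3, RPL6, RPL10L, RPL12, RPL32, RPL36, RPS3A, RPS4X, RPS27L and RPS29. Windows of 4 of them are shown because these genes recur below, again with the longest run in capitals.
RPL12, chr9:127451387-127451416, minus strand: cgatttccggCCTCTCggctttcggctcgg
RPL32, chr3:12840431-12840460, minus strand: ggtgacccttgaCCTCCTgggatcgcatct
RPS29, chr14:49598691-49598720, minus strand: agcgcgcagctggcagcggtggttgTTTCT
RPS27L, chr15:63157458-63157487, minus strand: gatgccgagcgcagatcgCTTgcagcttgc
A run was counted anywhere in the window, so the split of members by it does not show which of them carry a TOP tract. In RPL12 a run of 6 bases begins at the listed start, while in RPL38 the longest run begins after it. The RPS29 run reaches the end of the window. A window without the run says only that no run of at least 8 such bases was found in it. The listed start of RPL32 falls on the first base of a snoRNA described below. It lies inside the gene, whose annotated 5′ end is at chr3:12841588 on the minus strand. The window shown for RPL32 does not reach that end.

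The ribosomal protein genes were abundant in all libraries. Their median was 431 FPKM with empty vector, 362 with SALL4A and 463 with SALL4B, 347 untreated and 273 after knockdown, while the median of genes at 1 FPKM or more was 11.9 to 15.1 FPKM. Without small RNAs, the 100 most abundant genes included 40 or 41 members in the SNU-387 libraries, 50 in untreated and 43 in knockdown cells. Members took 7.76% of all summed FPKM with empty vector, 6.41% with SALL4A and 8.46% with SALL4B, 7.81% untreated and 4.68% after knockdown. With small RNAs left out of the total, the knockdown share was 7.71% and the untreated share 7.94%. Most of the gap between these 2 libraries thus lay in the denominator. RPL32, at 138 FPKM untreated and 1517 FPKM after knockdown, counts in these shares and narrows the gap that remains. In bulk RNA, fewer cells of a type and less RNA per cell cannot be told apart.

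**Figure D1:**
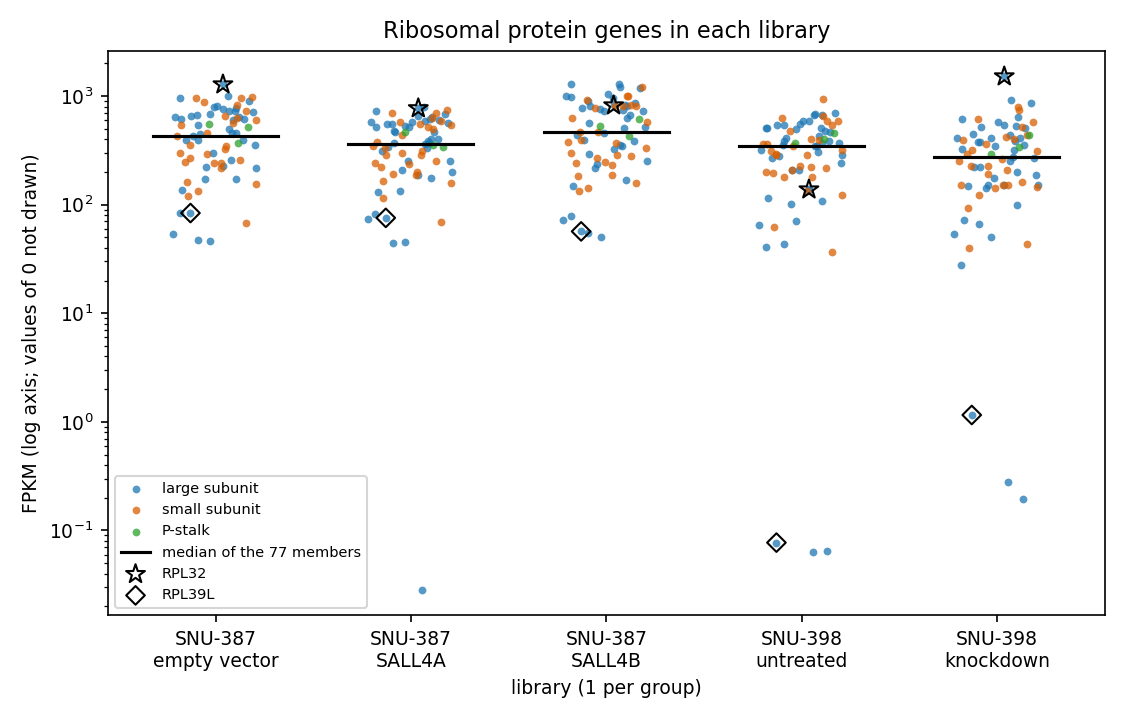
FPKM (log axis) of the ribosomal protein genes in the 5 libraries, 1 point per gene, coloured by subunit, with the median of the 77 genes as a bar; values of 0 are not drawn. Medians run from 273 to 463 FPKM, RPL32 (star) drops to 138 FPKM in untreated cells, and RPL39L (diamond) is near 0 in both SNU-398 libraries.

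Members differed widely from each other, and kept a similar order of levels in all libraries. Rank correlations of levels between libraries were 0.857 to 0.976 over 73 members, as a description only, since gene length and mapping are shared by all libraries. RPL26, a protein at the exit of the peptide tunnel, was at 1000.04 FPKM with empty vector, 798 with SALL4A and 1289 with SALL4B, 671 untreated and 437 after knockdown. RPS24, a small subunit protein mutated in Diamond-Blackfan anaemia, was at 819, 629, 1005, 941 and 787 FPKM in the same order. RPL26 was the most abundant member of the SALL4A and SALL4B libraries, and RPS24 that of untreated cells.

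At the low end, RPL13, on chromosome 16, was at 46.3, 45.6, 50.2, 71.0 and 50.4 FPKM in the same order of libraries. RPL10, which joins the large subunit last and sits near its catalytic centre, was at 84.5, 82.4, 78.0, 40.9 and 28.01 FPKM. Most ribosomal protein genes have processed pseudogene copies in the genome, and reads shared with a copy may be lost or split. The 28 RPL and RPS pseudogene rows summed to 64.4 FPKM (SALL4A) to 139 FPKM (knockdown).

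Of the 77 members, 3 stayed below 1 FPKM in every library and entered no ratio. RPL3L, a muscle paralog of RPL3, reached at most 0.281 FPKM and RPL10L, a testis paralog of RPL10, at most 0.195 FPKM, both in knockdown cells.

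RPL32, a large subunit protein gene at chr3:12834485-12841588 (minus strand), stood apart from the other members. It was at 1279.6 FPKM with empty vector, 772 with SALL4A and 820.1 with SALL4B, 138 untreated and 1517 after knockdown. It was the most abundant member of the empty vector and knockdown libraries and ranked 61 among members in untreated cells. Against the member median of its own library it was at 2.97, 2.13, 1.77, 0.40 and 5.56 times in the same order.

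The snoRNA SNORA7A lies inside RPL32 on the same strand, at chr3:12840312-12840450. In GENCODE 29 (GRCh38), all 139 of its 139 bases are within an annotated exon (chr3:12840142-12841529) of a coding RPL32 transcript. SNORA7A has no row of its own in the tables, so no value of its own can be set beside RPL32. Its near copy SNORA7B, at chr3:129397210-129397348 inside the pseudogene RPL32P3, does have a row. The copies share 137 of 139 bases (98.6%) and differ by G26C and C114T, the base of SNORA7A first, counted from 1 at the 5′ end. Their first 30 bases are shown with the differing base in capitals, then all of SNORA7B with its ACA box, the mark of the H/ACA class 3 bases from the end, in capitals.
SNORA7A, first 30 bases, chr3:12840421-12840450, minus strand: gacctcctgggatcgcatctggagaGtgcc
SNORA7B, first 30 bases, chr3:129397319-129397348, minus strand: gacctcctgggatcgcatctggagaCtgcc
SNORA7B, chr3:129397210-129397348, minus strand: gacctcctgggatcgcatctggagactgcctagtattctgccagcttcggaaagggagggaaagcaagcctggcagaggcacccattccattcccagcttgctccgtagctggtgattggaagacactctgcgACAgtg

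SNORA7B was at 364 FPKM with empty vector, 196 with SALL4A and 342 with SALL4B, 13.1 untreated and 505 after knockdown. Its lowest and highest libraries were therefore the same as those of RPL32. The part of SNORA7A fragments in the RPL32 value was not tested, since the tables hold no value below the gene. The RPL32 value may hold snoRNA fragments beside those of its mRNA.

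The other members with a snoRNA inside give a wider view of the same libraries. GENCODE places 54 snoRNA genes inside 26 members, all on the strand of the member, and 51 of them lie outside the exons of coding transcripts. Of the 45 with a row, 22 were listed at 0 in all libraries and 23 had a value, of which 21 were highest in knockdown cells. Their summed FPKM was 9483 with empty vector, 9254 with SALL4A and 8699 with SALL4B, 243 untreated and 34995 after knockdown. FPKM of such short RNAs rests on a length correction that is unsteady for transcripts near the fragment length, so these sums describe the tables and not molecules.

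The hosts RPL13A, RPL10 and RPS3, chosen after the values were seen, were compared with their snoRNAs. SNORD33, inside RPL13A, was at 2202 FPKM with empty vector, 2930 with SALL4A and 4953 with SALL4B, 114 untreated and 13732 after knockdown. RPL13A, whose protein is also known as a translational silencer in inflammation, was at 788, 522, 726, 550.2 and 349.8 FPKM in the same order. The snoRNA was thus lowest in untreated cells and highest in knockdown cells, where the host was lowest.

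SNORA70, inside RPL10, was at 1311, 771, 894, 20.8 and 1136 FPKM in the order empty vector, SALL4A, SALL4B, untreated and knockdown. The host RPL10 was lowest in knockdown cells at 28.01 FPKM, as given above. In RPS3, a KH-domain protein at the mRNA entry, SNORD15A and SNORD15B together reached 28.7 FPKM untreated and 3894 FPKM after knockdown, while RPS3 was at 179.9 and 152 FPKM. A high snoRNA value beside a lower host value was thus seen in RPL13A, RPL10 and RPS3.

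Members whose snoRNAs have no row at all were RPL32, RPL27A, RPS13 and RPS3A. RPL27A was at 47.2 FPKM with empty vector, 44.0 with SALL4A and 54.5 with SALL4B, 43.6 untreated and 66.7 after knockdown, a log2 ratio of 0.60 for the SNU-398 pair, the highest after RPL32 and RPL39L. SNORA3A overlaps an annotated exon of RPL27A by 98 of its 130 bases. In RPS13 and RPS3A, whose snoRNAs lie outside coding exons, the ratio was 0.13 and 0.06. The remaining overlap, of SNORD42B with an RPL23A exon (48 of 67 bases), has its own row, listed at 0 throughout.

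**Figure D2:**
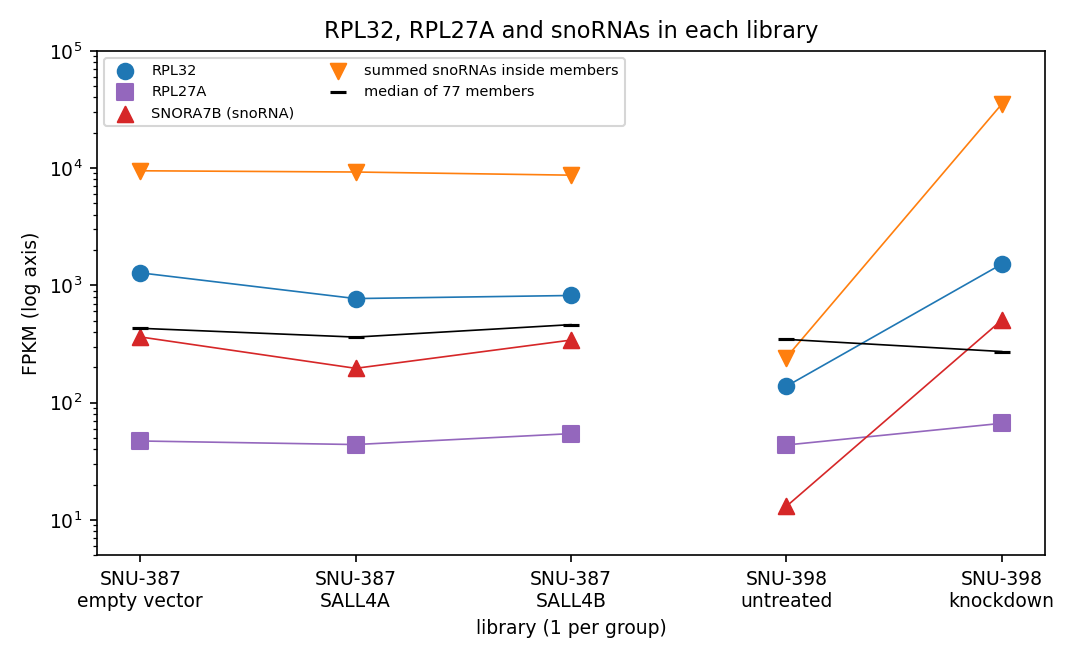
FPKM (log axis) of RPL32, RPL27A, the snoRNA SNORA7B, the sum of the snoRNAs inside members and the median of the 77 members, in the 5 libraries; lines join libraries of the same titled line. RPL32 goes from 138 to 1517 FPKM and SNORA7B from 13.1 to 505 FPKM between untreated and knockdown cells, while the member median goes from 347 to 273 FPKM.

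Comparisons between libraries used the log2 ratio of (FPKM + 1) wherever 1 library of the pair reached 1 FPKM, a scale that understates differences of low genes. With 74 members passing in each pair, counts of members at least 2-fold apart are read beside the percentage of all genes that far apart. Rescaling all tables to a common total moved the median gene of the knockdown pair by -0.61, and leaving small RNAs out of the total moved that of SALL4A against SALL4B by 0.17. Values are as deposited unless stated.

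In SALL4A cells most ribosomal protein genes were slightly lower than in empty vector cells. The median log2 ratio over 74 members was -0.24 (quartiles -0.35 and -0.06), beside 0.01 over all 12441 genes. It was below 0 for 63 members and above 0 for 11, while 49.3% of all genes were below 0. No member was 2-fold apart, where 2.27% of all genes were that much higher and 3.24% that much lower. Large subunit genes had a median of -0.25, small subunit genes -0.16 and P-stalk genes -0.23.

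Markers of other cell types differed between the same libraries. The 6 fibroblast markers, none listed at 0, summed to 716 FPKM with empty vector, 289 with SALL4A and 536 with SALL4B, and 5 of 6 were below 0 with SALL4A (median -1.73) and 4 of 6 with SALL4B (median -2.41). COL1A2, a collagen chain, was at 326 FPKM with empty vector, 83.2 with SALL4A and 8.50 with SALL4B. Markers above empty vector were LUM (263 to 488 FPKM) and DCN (30.4 to 32.5 FPKM) with SALL4B, and PDGFRB (2.75 to 4.68 FPKM) with SALL4A. LUM thus made up most of the SALL4B sum. The 4 endothelial markers summed to 2.26, 10.1 and 1.64 FPKM and the 5 leukocyte markers to 35.8, 17.0 and 42.4 FPKM. In SNU-398 cells, untreated then knockdown, the sums were 92.6 and 117 FPKM for fibroblast, 0.0514 and 0.243 for endothelial and 5.57 and 9.91 for leukocyte markers. Their part in the ribosomal protein ratios was not tested.

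The lowest ratios in SALL4A cells were -0.73 for RPL32, -0.69 for RPL36 and -0.62 for RPLP2, an acidic stalk protein that helps recruit elongation factors. RPL36 was at 598 FPKM in empty vector and 369.7 FPKM in SALL4A cells. At the other end, RPS16, whose tail reaches the P-site tRNA, was at 135 FPKM with empty vector, 191 with SALL4A and 143 with SALL4B, 179 untreated and 122 after knockdown. RPS16 (0.50), RPL28 (0.44), RPL8 (0.36) and RPS21 (0.29) were thus higher in SALL4A cells while the median member was lower.

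In SALL4B cells most ribosomal protein genes were slightly higher than in the same empty vector library. The median was 0.17 (quartiles -0.04 and 0.40) beside 0.03 over all 12459 genes, with 53 members above 0 and 21 below. The share of all genes above 0 was 53.4%, and that of members 71.6%. At least 2-fold higher were 2 members, RPS27L and RPS29, where 3.13% of all genes were, and no member was 2-fold lower, where 4.86% of all genes were. Large subunit genes had a median of 0.21, small subunit genes 0.11 and P-stalk genes 0.21.

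RPS27L, a paralog of RPS27, was at 67.5 FPKM with empty vector, 69.6 with SALL4A and 160.0 with SALL4B, 36.6 untreated and 43.1 after knockdown. RPS29, a zinc-binding protein near the decoding head of the small subunit, was at 154, 157, 329, 123 and 145 FPKM in the same order. Both were highest in SALL4B cells, with log2 ratios to empty vector of 1.23 and 1.09.

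Other members high in SALL4B cells were RPL30 (0.86), RPS21 (0.78), RPL38 (0.75), RPL27 (0.69), RPL12 (0.66) and RPS25 (0.65). RPL38, linked in mice to translation of Hox mRNAs, was at 723 FPKM with empty vector, 593 with SALL4A and 1219 with SALL4B, 683 untreated and 915 after knockdown. The lowest ratios in SALL4B cells were -0.64 for RPL32, -0.55 for RPL39L, -0.49 for RPL7A and -0.43 for RPL3, a protein that reaches the peptidyl transferase centre. RPS19, the gene most often mutated in Diamond-Blackfan anaemia, was at 239.5 FPKM in empty vector, 186 in SALL4A and 189 in SALL4B cells. RPL32, RPL7A and RPS19 were lower with either isoform, in ratios that share the empty vector library.

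Between the isoforms, the SALL4A library had lower ribosomal protein levels than the SALL4B library. The median was -0.42 (quartiles -0.70 and -0.14) beside -0.00 over all 12424 genes, with 64 members below 0 and 10 above. At least 2-fold lower in SALL4A cells were 4 members, where 3.39% of all genes were, and none was 2-fold higher, where 3.82% of all genes were. This pair uses the same libraries as the ratios to empty vector, so it adds no separate measurement.

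The 4 members were RPS27L (-1.19), RPS29 (-1.07), RPL38 (-1.04) and RPL23A (-1.03). RPL23A, a docking site for targeting factors at the tunnel exit, was at 352 FPKM with empty vector, 254 with SALL4A and 520.1 with SALL4B, 241 untreated and 189.5 after knockdown. With small RNAs left out of the total, or with a common total, RPS27L alone of these reached 2-fold, and after a correction for transcript length none did (RPS27L -0.86). The members highest in SALL4A relative to SALL4B were RPS16 and RPL39L, both at 0.41, and RPL3 at 0.34.

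In SNU-398 cells the median ribosomal protein gene was slightly lower with the knockdown than in untreated cells. The median was -0.19 (quartiles -0.45 and 0.08) beside -0.01 over all 13716 genes, with 51 members below 0 and 23 above, while 50.6% of all genes were below 0. At least 2-fold higher were 2 members, RPL32 and RPL39L, where 9.73% of all genes were, and 1 was 2-fold lower, RPS28, where 8.13% of all genes were. With a common total, which the small RNA share of the knockdown library enters, the median was -0.87, beside -0.62 over all genes. The 26 members 2-fold lower on that scale include this shift of all genes, and no share of all genes was set beside them.

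RPS28, a small subunit protein next to the mRNA exit, was at 161 FPKM with empty vector, 165 with SALL4A and 185 with SALL4B, 195 untreated and 93.8 after knockdown. Its log2 ratio in the SNU-398 pair was -1.05, and -0.86 after the length correction. Next lowest were RPL29 (-0.92), RPL23 (-0.88), RPS2 (-0.87), RPL14 (-0.86) and RPL3 (-0.77). RPS2, which lines the mRNA entry, was at 347 FPKM untreated and 189.7 FPKM after knockdown.

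Higher in knockdown cells, beside RPL32 (3.45), RPL39L (1.002) and RPL27A (0.60), were RPL37 (0.51), RPL38 (0.42), RPL35A (0.35), RPL30 (0.34) and RPL37A (0.30). RPL37A was at 954 FPKM with empty vector, 728 with SALL4A and 1288 with SALL4B, 503 untreated and 619 after knockdown. With a common total RPL32 stayed higher (2.78), RPL27A was at -0.053 and RPL37, RPL38, RPL35A, RPL30 and RPL37A ran from -0.15 to -0.37. Without RPL32, the count of members at least 2-fold higher was 1.

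RPL39L, a paralog of the tunnel protein RPL39 known from testis and from tumours, was near 0 in SNU-398 cells only. It was at 83.7 FPKM with empty vector, 75.6 with SALL4A and 56.8 with SALL4B, 0.0773 untreated and 1.16 after knockdown. The SNU-398 values rest on about 1.24 and 6.21 fragments, so the ratio of 1.002 between them has little depth behind it, and with a pseudocount of 5 it was 0.28. RPL39 itself was at 707, 563, 724, 368 and 266 FPKM in the same order, well above its paralog in every library.

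**Figure D3:**
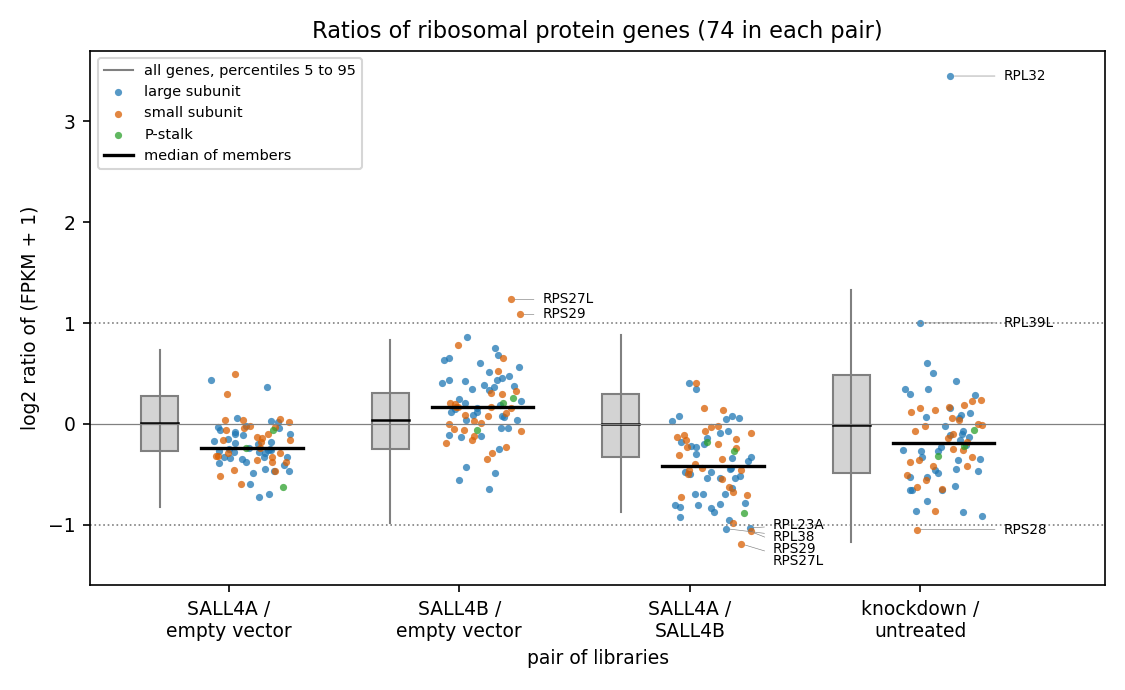
Log2 ratio of (FPKM + 1) for the 74 ribosomal protein genes in each of 4 pairs of libraries, 1 point per gene, with the member median as a bar and, in grey, the median, quartiles and percentiles 5 to 95 of all genes; dotted lines mark 2-fold. Member medians are -0.24, 0.17, -0.42 and -0.19, and the named genes are those at least 2-fold apart.

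Among functional groups of members, the P-stalk genes stayed close to the other members. RPLP0, the stalk base, was at 554 FPKM with empty vector, 470.4 with SALL4A and 533 with SALL4B, 366 untreated and 294 after knockdown. RPLP2 was at 520.2, 337, 621, 456 and 438 FPKM, and its ratio of SALL4A to SALL4B (-0.88) was the lowest of the 3. RPLP1 lay between 343 and 430.4 FPKM in all libraries.

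RPL5, RPL11 and RPL23 can bind the ubiquitin ligase MDM2 when ribosome assembly is disturbed, RPL5 and RPL11 together with 5S ribosomal RNA. RPL5 was at 726 FPKM with empty vector, 612 with SALL4A and 829 with SALL4B, 504 untreated and 534 after knockdown, and RPL11 at 758, 660.2, 959, 584 and 543 FPKM. RPL23 was at 457, 404, 627, 369 and 201 FPKM. In the SNU-398 pair the ratios were 0.09 for RPL5, -0.11 for RPL11 and -0.88 for RPL23. MDM2 itself had ratios of 0.27 in SALL4A, -0.03 in SALL4B and 0.25 in knockdown cells.

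RPS6, the small subunit target of S6 kinase downstream of mTOR, was at 962 FPKM with empty vector, 696 with SALL4A and 821 with SALL4B, 592 untreated and 524 after knockdown. RPL41, which encodes one of the smallest human proteins, was at 773, 644, 817, 677 and 643 FPKM. The ratios to empty vector were -0.47 and -0.23 for RPS6 and -0.26 and 0.08 for RPL41, with SALL4A first.

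Members with a snoRNA inside (26) were set beside the 48 without one that had a ratio. Their medians were -0.24 and -0.23 for SALL4A, 0.14 and 0.20 for SALL4B, and -0.40 and -0.42 for SALL4A against SALL4B. For the knockdown pair they were -0.34 with and -0.13 without a snoRNA, with RPL32 at 3.45 in the first group. That gap was not tested.

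Ratios were also read by transcript length. Members are short, with a median over coding transcripts of 764.5 bases (359 to 2316.5). Over other coding genes under 600 bases the median ratio was -0.09 for SALL4A, 0.18 for SALL4B, -0.27 for SALL4A against SALL4B and -0.10 for the knockdown pair. From 600 to under 1000 bases it was -0.14, 0.12, -0.30 and -0.21, and at 1000 bases or more 0.02, 0.02, 0.02 and -0.05. Other genes under 1000 bases thus had medians on the same side of 0 as the ribosomal protein genes, except that those under 600 bases turned to 0.013 for SALL4A with small RNAs left out of the total.

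Among members, the 18 that passed under 600 bases had medians of -0.27, 0.21, -0.52 and -0.11, and the 17 at 1000 bases or more -0.17, 0.08, -0.23 and -0.18, in the same order of pairs. The rank correlation of ratio with length was 0.30 over the 74 members and 0.27 over 10765 other coding genes for SALL4A against SALL4B, as a description over genes that share the same 2 libraries. In the knockdown pair it was -0.11 over members and 0.07 over other genes, which are opposite in sign. After subtracting the running median of the 400 other genes nearest in length, the member medians were -0.10, 0.04, -0.07 and -0.01. The sources used here give no RNA quality or fragment size, and their part was not tested.

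**Figure D4:**
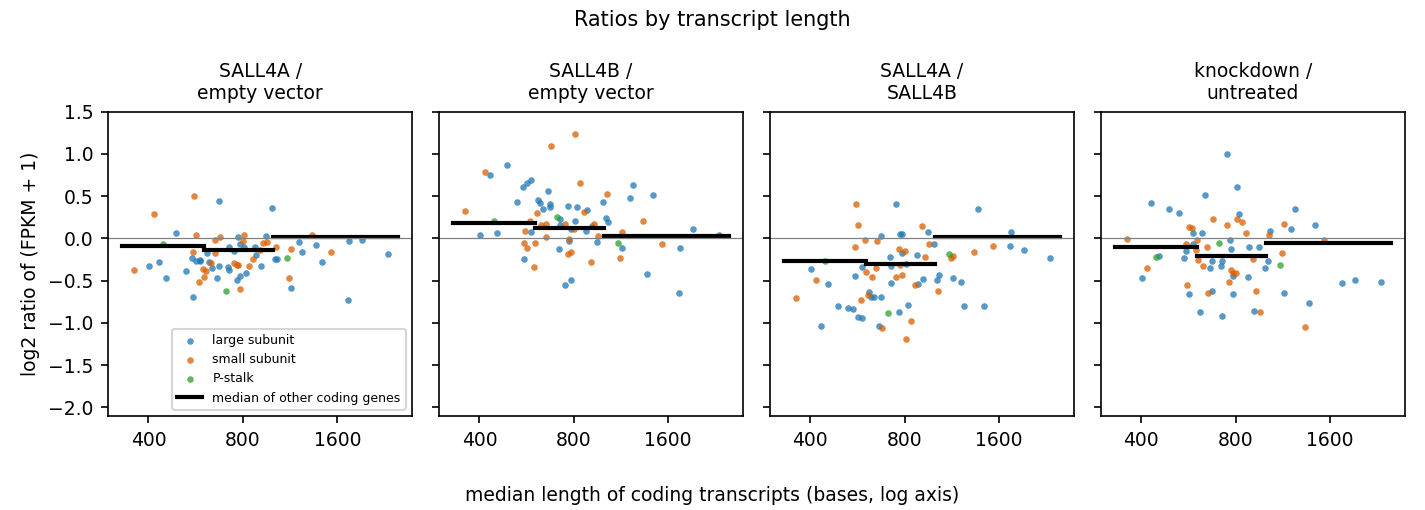
Log2 ratio of (FPKM + 1) of ribosomal protein genes against the median length of their coding transcripts (bases, log axis) in 4 pairs of libraries, with the median of other coding genes under 600, from 600 to under 1000 and at 1000 bases or more as black bars; RPL32 in the knockdown pair (3.45) lies off the scale. In SALL4A against SALL4B the bars lie at -0.27, -0.30 and 0.02.

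Related genes were read from lists of the same pathway, with members of each list taken by function. The 8 ribosomal proteins outside the name pattern had medians of -0.19 for SALL4A, 0.16 for SALL4B, -0.37 between isoforms and -0.05 for the knockdown pair. RPSA, a small subunit protein, was at 329.7 FPKM with empty vector, 290.0 with SALL4A and 405 with SALL4B, 222 untreated and 274 after knockdown. Within this list 1 gene was 2-fold apart, RPL26L1, a paralog of RPL26, at 111 FPKM untreated and 46.2 FPKM after knockdown, where 8.13% of all genes were that much lower. The 74 mitochondrial ribosomal protein genes, which serve the separate mitochondrial ribosome, had medians of -0.10, 0.24, -0.36 and -0.35 in the same order of pairs, the first turning to 0.00 with small RNAs left out of the total.

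Ribosome assembly factors, the proteins that build ribosomal subunits in the nucleolus, lay on the other side of 0 from the ribosomal proteins in SALL4A cells. Of 38 such genes, 34 were above 0 with each isoform, beside 50.7% of all genes for SALL4A and 53.4% for SALL4B. The medians were 0.35 for SALL4A and 0.40 for SALL4B. BOP1, which matures large subunit RNA, was at 14.8 FPKM with empty vector, 28.8 with SALL4A and 20.8 with SALL4B, 47.3 untreated and 42.8 after knockdown. RRS1, which brings in the 5S particle, was at 13.4, 24.3, 28.4, 43.2 and 25.4 FPKM and was the 1 list gene 2-fold higher with SALL4B (1.03), where 3.13% of all genes were. In both SALL4 libraries, then, assembly factor genes sat above empty vector, whereas ribosomal protein genes sat below it with SALL4A and above it with SALL4B. These medians are not corrected for transcript length. After that correction the ribosomal protein genes were at -0.10 and 0.04, and no such value is given for assembly factors. The part of length in this contrast was not tested.

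In the knockdown pair the assembly factors had a median of -0.28, with 30 of 38 below 0, beside 50.6% of all genes. At least 2-fold lower were 3 of 38, a share no larger than the 8.13% of all genes. These were NOB1 (-1.62), which makes the final cleavage of small subunit RNA, FBL (-1.24), the methyltransferase of C/D box snoRNA particles, and NOLC1 (-1.01). NOB1 was at 80.2 FPKM untreated and 25.4 FPKM after knockdown. FBL was at 121 and 50.5 FPKM, beside 1.73% and 39.3% of summed FPKM under small RNAs. The 8 core proteins of snoRNA particles had a median of -0.53 there, with 7 below 0. All of them but NHP2L1 are also among the 38 assembly factors, so this list is no separate group.

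The 14 RNA polymerase I genes, which make ribosomal RNA, had medians of 0.34 for SALL4A, 0.20 for SALL4B and -0.19 for the knockdown pair. A list of 15 genes taken as TOP mRNAs, mainly but not only translation factors, had medians of -0.16, 0.01 and -0.18. The second turned to -0.08 with a common total. Their TOP tracts were taken as known and not read from start windows. TPT1, of this list, was at 112 FPKM untreated and 525 FPKM after knockdown (2.22), the list gene farthest apart. EEF1A1, the main elongation factor, was at 475 and 793 FPKM in the same libraries.

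Of 16 regulators of mTOR and of TOP mRNAs, 14 were above 0 with SALL4B, beside 53.4% of all genes, and 4 were at least 2-fold lower in knockdown cells, beside 8.13%. MYC, a transcription factor that drives ribosome genes, was at 31.8 FPKM with empty vector, 50.1 with SALL4A and 68.9 with SALL4B, 104 untreated and 43.7 after knockdown. LARP1, the TOP mRNA binding protein, was at 98.1 FPKM untreated and 36.6 FPKM after knockdown. EIF4EBP1 (-1.35) and EIF4EBP2 (-1.38), which restrain cap-dependent translation, were the remaining 2 of the 4 with MYC (-1.22) and LARP1 (-1.40).

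**Figure D5:**
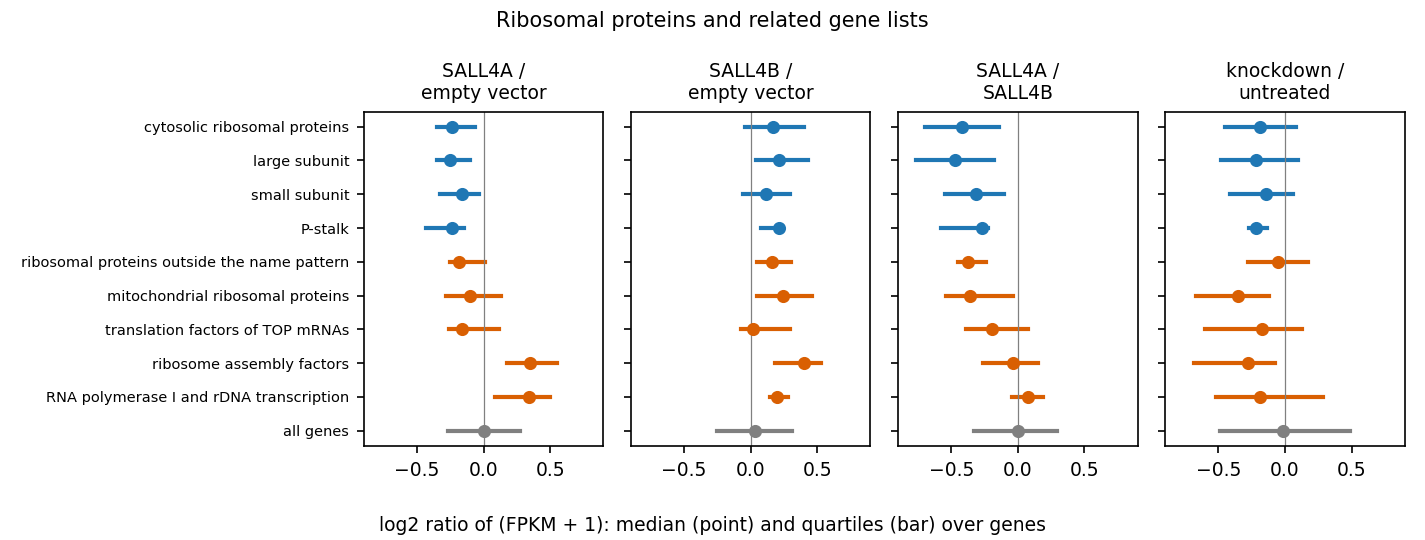
Median (point) and quartiles (bar) of the log2 ratio of (FPKM + 1) over ribosomal protein genes, their subunits, related gene lists and all genes, in 4 pairs of libraries. Assembly factors lie at 0.35 and 0.40 with SALL4A and SALL4B, while cytosolic ribosomal proteins lie at -0.24 and 0.17. The values are not corrected for transcript length.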

How the data were processed

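The authors deposited FPKM per gene for 5 libraries, 1 per group. Per the submitters' processing notes, TopHat2, SAMtools, Cufflinks and Cuffdiff were used with GRCh38/hg38; per the labels' protocols, total RNA went into a kit that depletes ribosomal RNA. The sources used here give no versions, annotation, strand use or joint normalisation, so reads of paralogs, pseudogenes and antisense genes cannot be separated. Each table held 26032 rows, of which 17 without a gene name were left out; rows sharing a symbol were summed.

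Ratios were log2 of (FPKM + 1) wherever 1 library of a pair reached 1 FPKM, with 2-fold counts and no test. Depth was estimated from steps between low FPKM of 1895 single-transcript genes of at least 1000 bases. Gene positions, lengths and snoRNAs came from GENCODE 29 and start windows from RefSeq. Members and lists were chosen with earlier results of these data known. Named members were, per pair, those 2-fold apart, the 8 highest and 8 lowest ratios at 5 FPKM or more, and RPL32; also the 3 most and least abundant per library, stalk genes, MDM2 binders, L-named paralogs, RPL13A, RPS6, RPL41 and snoRNA hosts; and of each list the 2 highest and 2 lowest. RPSA, EEF1A1, MDM2 and RPL39 were added as references. Some genes that these rules name are not reported here. Code was tested on simulated data. Alternatives covered scaling, pseudocount, filter, row sums, members taken and transcript length. Python 3.11.15, numpy 2.4.6, pandas 2.3.3, scipy 1.17.1, matplotlib 3.10.9 and biopython 1.88 were used.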

Additional observations from a re-analysis of the deposited data

How the results depend on the processing

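Every member median kept its sign under the 13 alternatives run, and no member that was at least 2-fold apart turned its sign. Members closer than that could, as with a common total in the knockdown pair. With the transcript length correction the medians were -0.10 for SALL4A, 0.038 for SALL4B, -0.073 for SALL4A against SALL4B and -0.011 for knockdown. With small RNAs left out of the total they were -0.13, 0.085 and -0.23 for the first 3 pairs, and with a common total 0.077 for SALL4B and -0.87 for knockdown. Members at least 2-fold higher with SALL4B numbered 1 with a common total, without L-named members or after the length correction. Members 2-fold lower in SALL4A than in SALL4B numbered 1 with either total and 0 after the length correction. In the knockdown pair, members 2-fold higher numbered 1 with a common total, a pseudocount of 5 or a filter of 5 FPKM. They also numbered 1 without snoRNA hosts, L-named members or RPL32. Members 2-fold lower numbered 26 with a common total, where the median over all genes was -0.62, and 0 after the length correction. Without snoRNA hosts the member share of summed FPKM was 4.95%, 4.17%, 5.64%, 5.23% and 3.08%, in the order empty vector, SALL4A, SALL4B, untreated and knockdown. For all 77 members, hosts included, the share with small RNAs out of the total was 7.49% in SALL4A and 7.71% in knockdown cells. The other 146 values of this kind stayed within the limits set for an equal value, and among named genes 14 calls were lost and 7 gained. The cause was not tested.

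No member's longest transcript was under 500 bases, so leaving out such members was not run; leaving out the 7 with a median under 500 bases, and leaving out RPL32, were chosen after seeing the data. No paired analysis was possible because each group holds 1 library. FPKM keep no counts, so the limits of depth rest on the estimates: RPL39L in SNU-398, RPL3L and RPL10L had about 6 fragments or fewer.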
